A study of Homo sapiens with 11 samples.

Results

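The TGF-beta pathway was described here by 9 genes, TGFB1, TGFB2, TGFBR1, TGFBR2, TGFBR3, SMAD2, SMAD3, SMAD4 and SMAD7. They were taken by name from the 23167 gene identifiers of the count tables, through the gene symbols of GENCODE release 44, and the rule that chose them uses their place in the pathway. All 9 passed the filter on low counts and were among the 10943 genes tested. MDA-MB-231, a triple-negative breast cancer line derived from a pleural effusion, was the only cell line. RNA-seq compared 2 WT libraries, from cells that received the transfection reagent INTERFERin without siRNA, with 2 mH2A1.1 KD libraries, from cells transfected for 3 days with 11 nM siRNA against mH2A1.1, the splice isoform of the histone variant macroH2A1 that binds ADP-ribose. No control siRNA entered the comparison, so siRNA transfection and loss of mH2A1.1 cannot be told apart. ChIP-seq peaks were given by 1 library with a custom anti-mH2A1.1 antibody and 1 library with an antibody to total mH2A1 (both isoforms). The labels of these libraries name no siRNA.

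TGF-beta ligands are secreted in a latent form and, once released, bind the type II receptor TGFBR2, which recruits and phosphorylates the type I receptor TGFBR1. TGFBR1 in turn phosphorylates SMAD2 and SMAD3, which join SMAD4 and enter the nucleus to regulate target genes, while SMAD7 is induced by the pathway and blocks the receptors. In breast cancer the pathway is known both for restraining growth of early tumours and for favouring epithelial-mesenchymal transition, invasion and metastasis of advanced ones, and MDA-MB-231 cells are widely used to study the second role.

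The 4 RNA-seq libraries held between 2309549 and 9794674 counts, and the shallowest was KD replicate 2. This library had 0 counts on chromosomes 22 and X and 30 on chromosome 21, so genes of these chromosomes were left out of the test, and none of the 9 genes lies there. MACROH2A1, whose count does not separate the isoforms, had 385 and 394 CPM (TMM-normalized read counts scaled to a common library size) in WT and 274 and 301 CPM in KD, both KD libraries lying below both WT libraries (log2 fold change -0.44 ± 0.17 SE, edgeR adjusted p = 0.204). All 7 mesenchymal markers of the line, among them VIM and CD44, were above 1 CPM in WT. Their summed level was 8872 to 8999.6 CPM in WT and 9658 to 10694 CPM in KD. Of the 8 luminal markers, 5 were above 1 CPM in WT, whereas ESR1 and PGR were at 0 counts. The summed level of the 8 luminal markers was 381 to 411 CPM in WT and 616 to 834 CPM in KD, and that of the 4 fibroblast markers, with DCN at 0, was 41.5 to 46.7 CPM in WT and 67.9 to 102 CPM in KD, and their part in the results was not tested. Across all genes tested, the change followed the GC content of the exons: with the genes split into 4 equal groups by GC content, the median log2 fold change was -0.44 in the lowest group and 0.45 in the highest. Because the 9 genes span this range, from 37.5% in SMAD4 to 62.1% in TGFB1, each change is given below also after correction of every library for exon length and GC content.

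Promoter sequence is shown for 3 of the genes, whose surroundings differ in what follows. TGFB2 has an mH2A1.1 peak just inside the gene and TGFBR1 has none near its start. SMAD7 sits at the edge of a broad mH2A1.1 domain. All 3 hold the motif marked in capitals, unlike most of the 9 genes. Each line gives the 250 bases before the start of the MANE Select transcript (the reference transcript agreed between RefSeq and Ensembl), from RefSeq on GRCh38.p14, 5′ to 3′ on the strand of the gene, at chr1:218345086-218345335 on the plus strand, chr9:99104863-99105112 on the plus strand and chr18:48950966-48951215 on the minus strand. Capitals mark CAGAC or its reverse complement GTCTG, the short box that the DNA-binding domains of SMAD3 and SMAD4 recognise.
TGFB2: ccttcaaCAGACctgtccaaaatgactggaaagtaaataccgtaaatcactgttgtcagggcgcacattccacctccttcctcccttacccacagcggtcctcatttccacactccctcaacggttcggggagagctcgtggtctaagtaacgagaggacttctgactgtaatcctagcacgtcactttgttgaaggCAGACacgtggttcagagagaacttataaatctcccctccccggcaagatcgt
TGFBR1: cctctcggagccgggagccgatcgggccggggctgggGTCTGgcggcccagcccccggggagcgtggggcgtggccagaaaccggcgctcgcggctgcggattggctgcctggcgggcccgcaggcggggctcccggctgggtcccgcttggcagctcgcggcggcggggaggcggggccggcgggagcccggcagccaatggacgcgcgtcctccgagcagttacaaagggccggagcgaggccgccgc
SMAD7: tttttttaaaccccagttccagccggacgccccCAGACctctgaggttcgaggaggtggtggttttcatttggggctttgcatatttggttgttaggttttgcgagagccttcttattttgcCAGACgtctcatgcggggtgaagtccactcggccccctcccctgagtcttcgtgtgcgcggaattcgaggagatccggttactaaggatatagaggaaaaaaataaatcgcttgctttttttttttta

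The motif search covered the window from 250 bases before to 50 bases after the MANE Select start of each gene, on both strands. CAGAC or GTCTG was present in 4 of the 9 windows, with 2 matches in TGFB2, 2 in SMAD7, 1 in TGFBR1 and 1 in SMAD3, and it was present in 45.3% of the 35116 RefSeq promoter windows, so the count is near that of all promoters. The palindromic SMAD-binding element GTCTAGAC, which holds the letters GTCT and AGAC but neither 5-letter box, was in none of the 9 windows and in 0.202% of all windows. The AP-1 element, TGACTCA or TGAGTCA, was found once, in TGFBR2, against 4.95% of all windows. The windows also differed in their number of CpG dinucleotides, from 13 in SMAD7 and 14 in TGFB2 to 51 in SMAD2, with a median of 14 over all windows.

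In WT cells the type II receptor TGFBR2 had the highest level of the 9 genes per length of transcript. On the scale of reads per kilobase of the MANE Select transcript and of sequencing depth (RPKM, over reads of protein-coding genes), which allows genes of unequal length to be compared, its level was 61.7 ± 1.6 (SD, n = 2). SMAD3, at 38.2 ± 0.9, and TGFBR1, at 37.4 ± 3.9, came next and did not differ beyond their spread, since the WT libraries of TGFBR1, at 40.1 and 34.6, lay on both sides of those of SMAD3, at 38.9 and 37.6. TGFB1 had a level of 27.6 ± 0.6 and TGFB2 one of 20.9 ± 1.8. The remaining 4 genes were lower, with levels of 7.33 ± 0.77 in SMAD4, 5.93 ± 0.10 in TGFBR3, 4.60 ± 0.18 in SMAD2 and 3.75 ± 0.23 in SMAD7. Apart from SMAD3 and TGFBR1, neighbours in this order did not overlap between the WT libraries. The transcript lengths limit the order, since the MANE Select transcript of SMAD2 is 34626 bp long and that of SMAD4 8772 bp. Per kilobase of all annotated exons, TGFBR1 came before SMAD3, and TGFBR3 and SMAD2 before SMAD4. The receptor, SMAD3 and ligand genes lay between percentile 68.4 (TGFB2) and percentile 91.0 (TGFBR2) of the genes tested, and the other 4 between percentile 23.9 (SMAD7) and percentile 37.6 (SMAD4).

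The question for the RNA-seq comparison was whether expression of these genes differs after mH2A1.1 KD. TGFB1, the ligand found in most tissues, had 76.3 and 78.9 CPM in WT and 83.4 and 109.8 CPM in KD. Both KD libraries were above both WT libraries, and KD replicate 2 was the higher. The log2 fold change of TGFB1 was 0.31 ± 0.20 (SE, n = 2 against 2) with an edgeR adjusted p of 0.354, and it was -0.15 ± 0.11 after the correction for length and GC content, so the direction of TGFB1 depended on the correction. TGFB2, the ligand that needs TGFBR3 for strong binding to TGFBR2, went the other way, with 131 and 117 CPM in WT and 110.3 and 80.0 CPM in KD. Both KD values lay below both WT values. For TGFB2 the log2 fold change was -0.37 ± 0.21 (edgeR adjusted p = 0.307) and shrank to -0.09 ± 0.10 with the correction. Without KD replicate 1 it was -0.64, and without KD replicate 2 it was -0.16. Counts of TGFB2 exceeded those of TGFB1 by 1.71 and 1.48 times in WT and by 1.32 times in KD replicate 1, whereas in KD replicate 2 the ratio was 0.728.

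TGFBR1, the type I receptor kinase, showed the largest difference among the 9 genes without the correction for length and GC content, whereas with it those of TGFBR3 and SMAD3 were larger. It had 262 and 228 CPM in WT and 183 and 128 CPM in KD, and the groups did not overlap. Its mean level was 1.57-fold lower in KD, with a log2 fold change of -0.65 ± 0.23 (SE) and a 95% interval from -1.18 to -0.11. The unadjusted edgeR p was 0.024, the lowest of the 9, and the adjusted p was 0.193, above the threshold of 0.1. With DESeq2 the log2 fold change of TGFBR1 was -0.66 and its adjusted p 0.108, also above the threshold. Without the filter on low counts edgeR called it (-0.67, edgeR adjusted p = 0.0405), beside 2143 of 15019 genes. After the correction for length and GC content the log2 fold change was -0.19 ± 0.10 (edgeR adjusted p = 0.273), and TGFBR1 has an exon GC content of 39.1%. Without KD replicate 2, the library that lacks counts on 3 chromosomes, TGFBR1 had a log2 fold change of -0.42, under the fold change of 1.5 that a call requires. Without KD replicate 1 it was -0.95.

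TGFBR2, the type II receptor, lay at nearly the same level in the groups. Its values were 286 and 278 CPM in WT and 265 and 276 CPM in KD, with the KD libraries only just below the WT libraries. The log2 fold change of TGFBR2 was -0.06 ± 0.17, and its 95% interval ran from -0.47 to 0.34, so changes of up to about this size cannot be told from none. With the correction the sign of TGFBR2 turned, to 0.09 ± 0.12. The number of TGFBR1 counts for each TGFBR2 count went from 0.916 and 0.819 in WT to 0.692 and 0.463 in KD. TGFBR3, or betaglycan, the co-receptor that presents ligand to TGFBR2, had 37.4 and 38.5 CPM in WT and 50.9 and 43.1 CPM in KD. Here KD replicate 1 was the higher of the KD libraries, unlike in TGFB1 and SMAD7. The log2 fold change of TGFBR3 was 0.32 ± 0.19 (edgeR adjusted p = 0.322). With the correction for length and GC content its log2 fold change was larger, at 0.53 ± 0.12 with an edgeR adjusted p of 0.0508, a fold of 1.45 that stayed under the required 1.5. In DESeq2 with the same correction it passed both thresholds, where its log2 fold change reached 0.64 (adjusted p = 0.059). That fit had a median log2 fold change of 0.112 over all genes, and it called 476 genes higher and 119 lower. Without KD replicate 2 the log2 fold change of TGFBR3 was 0.43, and without KD replicate 1 it was 0.18.

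Of the SMADs that the receptor phosphorylates, SMAD2 had 165 and 157 CPM in WT against 137 and 108 CPM in KD, with no overlap of the groups. For SMAD2 this gave a log2 fold change of -0.38 ± 0.19 (edgeR adjusted p = 0.261), and -0.14 ± 0.09 with the correction. SMAD3 showed no such shift, with 253 and 246 CPM in WT and 240.5 and 258 CPM in KD, and was the only one of the 9 genes whose groups overlapped. Its KD level was 0.999 times the WT level, with a 95% interval of the log2 fold change from -0.41 to 0.41, and with the correction its log2 fold change was -0.25 ± 0.11 (edgeR adjusted p = 0.19). SMAD2 had 0.652 and 0.637 counts per SMAD3 count in WT and 0.571 and 0.419 in KD. SMAD4, the partner shared by all SMAD complexes, had 69.5 and 60.2 CPM in WT and 53.0 and 39.8 CPM in KD. Both KD libraries lay below both WT libraries, and KD replicate 2 was the lower. The log2 fold change of SMAD4 was -0.47 ± 0.22 (edgeR adjusted p = 0.233). Without KD replicate 1 it was -0.72, and without KD replicate 2 it was -0.29. After the correction the fold was 1.00, while SMAD4 had the lowest exon GC content of the 9 genes.

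SMAD7, the inhibitory SMAD, rested on the fewest reads, with 125 and 92 counts in WT and 72 and 38 counts in KD. These gave 13.2 and 12.1 CPM in WT and 13.6 and 18.0 CPM in KD, so KD replicate 1 was barely above WT replicate 1. Its log2 fold change was 0.28 ± 0.25 (edgeR adjusted p = 0.48), and -0.04 ± 0.18 with the correction, so its direction also turned.

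**Figure D1:**
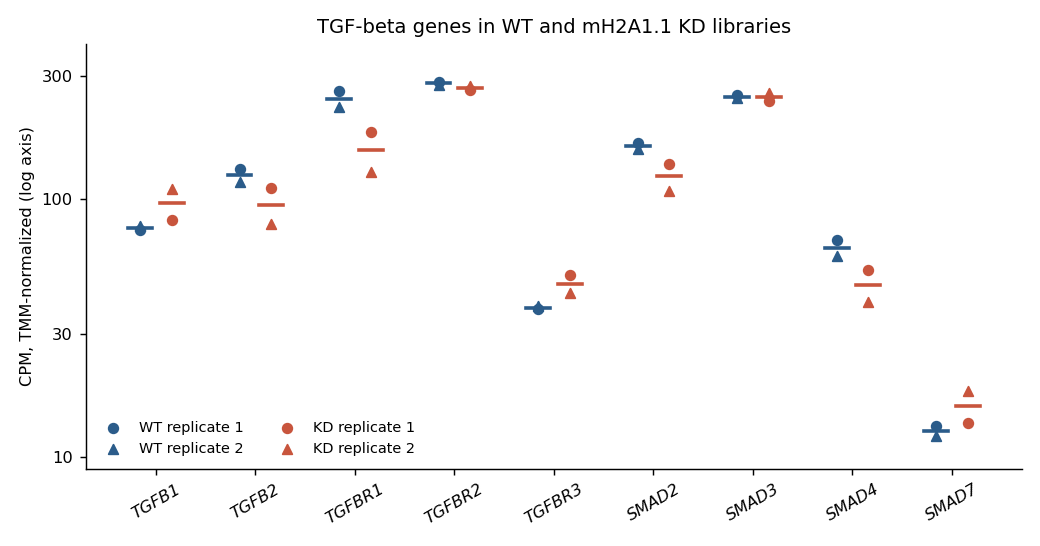
CPM (TMM-normalized, log axis) of the 9 genes in each RNA-seq library. Circles are replicate 1, triangles replicate 2 and horizontal bars group means of 2 libraries. KD replicate 2 is the library farther from WT in TGFB1, TGFB2, TGFBR1, SMAD2, SMAD4 and SMAD7, while TGFBR2 and SMAD3 lie close together in all 4 libraries.

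Counted over the pathway genes, both KD libraries lay below both WT libraries in 5 of 9 (TGFB2, TGFBR1, TGFBR2, SMAD2 and SMAD4, of which TGFBR2 turned sign with the correction) and above them in 3 of 9 (TGFB1, TGFBR3 and SMAD7, of which TGFB1 and SMAD7 turned sign with the correction). Over all 10943 genes, the KD libraries were below in 32.4% and above in 32.5%. The median log2 fold change was -0.06 over the 9 genes and 0.01 over all genes tested. None of the 9 genes passed an edgeR adjusted p under 0.1 with a fold change over 1.5, and neither did any gene of the table, so the share called was 0.0% for genes lower in KD and 0.0% for genes higher in KD. Without adjustment, at p under 0.05 and over the same fold, edgeR gave 1028 lower and 1038 higher genes, TGFBR1 among the lower. The number called in the whole table turned on single libraries, with 4735 genes without KD replicate 1 and 908 without KD replicate 2. DESeq2, the tool of the study, on the whole table called 5.78% of 9262 genes lower and 4.43% higher, and none of the 9. With the correction for length and GC content, edgeR called 3.1% lower and 2.43% higher, again none of the 9. CPM are relative to the whole library, so fewer cells expressing a gene and less of its RNA per cell cannot be told apart in these bulk samples.

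**Figure D2:**
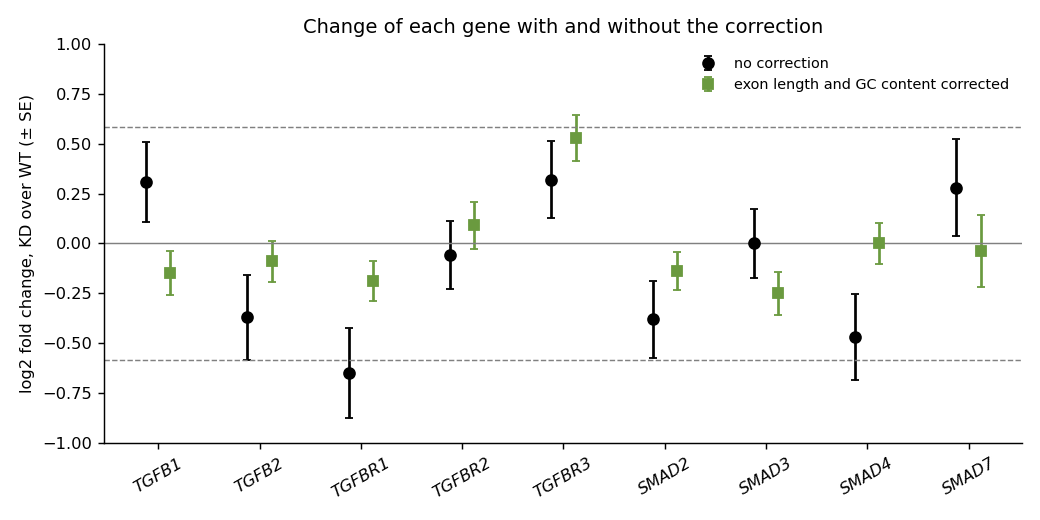
log2 fold change of KD over WT with its SE for each gene, without correction (black circles) and corrected for exon length and GC content (green squares). Dashed lines mark a fold change of 1.5 in each direction. TGFBR1 lies past the lower line at -0.65 and moves to -0.19 with the correction, while TGFBR3 moves from 0.32 to 0.53.

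The changes are set here beside exon GC content. TGFBR1, SMAD2 and SMAD4, with log2 fold changes between -0.65 and -0.38, fall in the lowest GC group of the genes tested, where the median log2 fold change was -0.44. TGFB2, TGFBR2 and TGFBR3 fall in the second group, with a median of -0.14, and SMAD3 in the third, with a median of 0.19. TGFB1 and SMAD7 fall in the highest group, with a median of 0.45. After the correction the medians of the 4 groups lay between 0.01 and 0.02. TGFBR3 was above the median of its group by the largest margin, and the part of GC content in the individual differences was not tested. Strand adds a limit to every count. The study counted with default settings of htseq-count, which keep the strand of the read, whereas the stranded kit it used gives reads of the opposite strand, and which setting made the deposited counts was not established. TGFB2 held between 169 and 1241 counts in a library and its antisense gene TGFB2-AS1 at most 15. TGFB1 overlaps HNRNPUL1 on the other strand, which held between 1098 and 4375 counts against 232 to 724 of TGFB1, and also CCDC97. SMAD2, SMAD3 and SMAD4 overlap lncRNA genes on the other strand that were not analysed here. Reads of such genes cannot be told apart from those of the pathway gene if strand was not used. SMAD4 also overlaps a protein-coding gene on its own strand, ENSG00000267699, where strand cannot separate the reads.

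**Figure D3:**
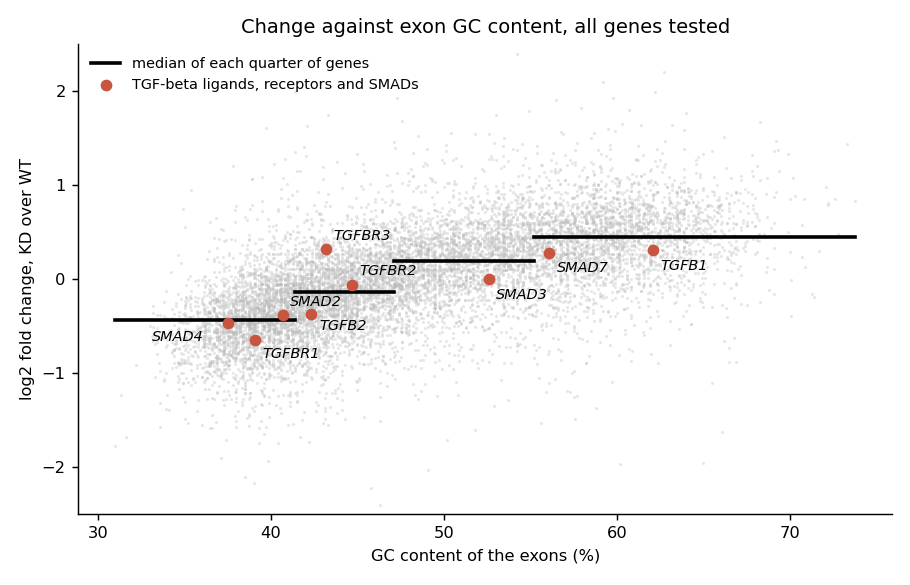
log2 fold change of KD over WT against the GC content of the exons (%) for the genes tested (grey) and the 9 pathway genes (red, labelled), with values beyond 2.5 in either direction not drawn. Black lines are the medians of the 4 equal groups of genes by GC content, which climb from -0.44 to 0.45, and most of the 9 genes lie near the line of their group.

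A wider list of 78 genes around the pathway was described in the same way. Of these, 62 were tested, and edgeR called 0 lower and 0 higher, as in the table as a whole, while the KD libraries lay below both WT libraries in 19 genes and above them in 18, beside 32.4% and 32.5% of all genes tested. The median log2 fold change was 0.01. DESeq2 gave an adjusted p for 50 genes and called 3 lower and 1 higher, beside 5.78% and 4.43% of all genes. One of these was IL11, a cytokine target gene linked to bone metastasis, with 18.0 and 16.5 CPM in WT and 8.70 and 4.73 CPM in KD, a log2 fold change of -1.25 ± 0.30 (edgeR adjusted p = 0.193, DESeq2 adjusted p = 0.0368). TNC, encoding the matrix protein tenascin C, had 195 and 202 CPM in WT and 307 and 426 CPM in KD, a log2 fold change of 0.88 ± 0.21 (edgeR adjusted p = 0.193, DESeq2 adjusted p = 0.00653). IL11 and TNC were also called by edgeR after the correction for length and GC content, with log2 fold changes of -1.53 and 0.64. DESeq2 with the correction called 0 genes of the list lower, so IL11 was not called there. With the correction edgeR called 1 further gene lower, CDKN1A, the cell cycle inhibitor p21, which was named after its values were seen. The log2 fold change of CDKN1A went from -0.17 to -0.60 while its CPM overlapped between groups.

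The other DESeq2 calls belonged to the BMP branch, which signals through its own receptors and SMADs. SMAD5, a receptor-regulated SMAD of that branch, had 193 and 183 CPM in WT and 123 and 76.7 CPM in KD (log2 fold change -0.90 ± 0.25, DESeq2 adjusted p = 0.0498). BMPR2, the type II BMP receptor, had 268 and 260.1 CPM in WT and 184 and 116 CPM in KD (log2 fold change -0.81 ± 0.25, DESeq2 adjusted p = 0.0775). With the correction the log2 fold changes were -0.50 in SMAD5 and -0.37 in BMPR2, and neither was called. The next genes by unadjusted p were, on the lower side, SKIL at -0.75, SMAD9 at -1.21 and PPM1A at -0.47, and with the correction their log2 fold changes were -0.18, -1.05 and 0.18, so the sign of PPM1A turned. SKIL encodes a repressor of SMAD complexes and PPM1A a phosphatase of SMAD2 and SMAD3, and SMAD9 stood at no more than 2.63 CPM. On the higher side they were LTBP1 at 0.50, BMP1 at 0.60, FURIN at 0.67, BMP4 at 0.49 and PPP1R15A at 0.50, and with the correction, in the same order, they were 0.35, 0.16, 0.19, 0.21 and 0.12. LTBP1 holds latent TGF-beta in the matrix and FURIN cleaves the ligand precursors.

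Of the 22 target genes listed, 18 were tested, and both KD libraries lay below WT in 4 and above WT in 4, with a median log2 fold change of 0.03 (all genes 32.4% below and 32.5% above, median 0.01). Among the 4 other SMADs the median was -0.60, with 3 of them below WT in both KD libraries (all genes 32.4%), 2 of which, SMAD6 and SMAD9, stood below 3 CPM. Latency and activation genes had a median of 0.19. BMP7, NODAL, LRRC32, ID3 and CDKN2B were at 0 counts in all libraries, and EP300 on chromosome 22 and USP9X on chromosome X were left out of the edgeR test because KD replicate 2 lists 0 counts there. DESeq2 on the whole table, with those zeros kept, called neither (adjusted p = 0.882 for EP300 and 0.887 for USP9X).

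**Figure D4:**
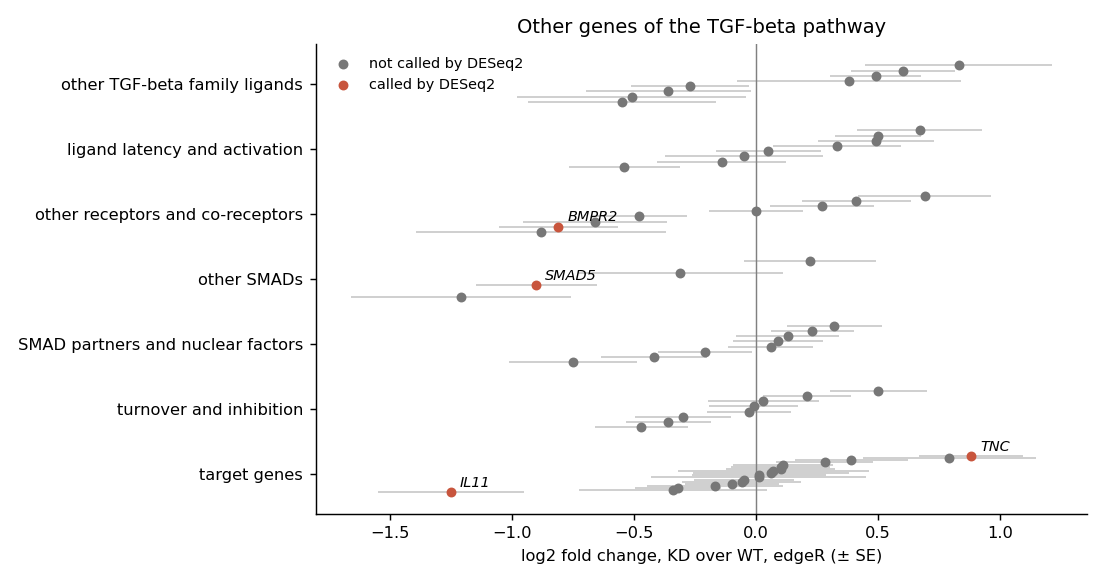
log2 fold change of KD over WT (edgeR, horizontal bars are SE) of the 62 tested genes of the wider list by group. Red points are the 4 genes called by DESeq2, with IL11 at -1.25, SMAD5 at -0.90 and BMPR2 at -0.81 on the left and TNC at 0.88 on the right.

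For the ChIP-seq data the question was where mH2A1.1 and total mH2A1 were called at these genes. The lists hold 30687 mH2A1.1 and 24222 total mH2A1 peaks, placed on a grid of 3000 bp, with 1 library each and no peak height, so presence is all that can be compared. A peak was counted at a transcription start site (TSS) when it came within 500 bp of the 5′ end of the gene. By this rule mH2A1.1 was present at 3 of the 9 genes, SMAD2, SMAD4 and SMAD7, and at 46.9% of all genes tested. Total mH2A1 was present at SMAD3 alone, against 18.4% of genes. A common mH2A1.1 peak, meaning one that overlaps a total mH2A1 peak by at least 1 bp, was present at SMAD7 alone, against 26.2% of genes. Where the MANE Select start was used in place of the 5′ end of the gene, TGFBR3 and SMAD3 joined, which made 5 of 9 with mH2A1.1 against 47.4% of all genes. The ligand and signalling receptor genes TGFB1, TGFB2, TGFBR1 and TGFBR2 had no mH2A1.1 peak within 500 bp of either start. Within 1000 bp of the 5′ end TGFB2 joined, which made 4 of 9 against 49.1% of all genes. The base of the 5′ end itself was covered in 2 of 9, SMAD2 and SMAD4, against 43.9%.

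SMAD7 had the broadest mH2A1.1 peak next to it. This domain of 75 kb (chr18:48951001-49026000, GRCh38) began 36 bp upstream of the SMAD7 TSS at position 48950965 and ran away from the gene, so that the first 215 of the SMAD7 bases printed above lie within it. Only 1.09% of the mH2A1.1 peaks were at least as wide, while 60.3% were a single bin of 3 kb. A total mH2A1 peak of 48 kb (chr18:48957001-49005000) lay inside the domain. Within SMAD7, intron 3 held a 3 kb bin (chr18:48939001-48942000) called in both lists. SMAD2 and SMAD4, also on chromosome 18, each had a single 3 kb mH2A1.1 bin over the 5′ end of the gene. It was chr18:47931001-47934000 at SMAD2, reaching 146 bp into the gene, and chr18:51027001-51030000 at SMAD4, reaching 1473 bp into it. Neither bin overlapped a total mH2A1 peak or reached the MANE Select transcript, and the nearest total mH2A1 peaks were 53855 bp from the SMAD2 TSS and 166528 bp from that of SMAD4.

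At SMAD3 the lists met without overlapping. A total mH2A1 bin (chr15:67062001-67065000) covered the 5′ end of the gene, and the next bin (chr15:67065001-67068000) was called for mH2A1.1 and held exon 1 of the MANE Select transcript. Within intron 1 of SMAD3, mH2A1.1 was called in 4 more bins and total mH2A1 in 3, of which 1 bin (chr15:67146001-67149000) was shared. TGFBR3, the longest gene at 226 kb, had the most peaks, 7 of mH2A1.1 and 8 of total mH2A1. Its MANE Select start lay in an mH2A1.1 peak of 9 kb (chr1:91884001-91893000) of which a part was also a total mH2A1 peak. In TGFBR3 total mH2A1 covered more of the gene than mH2A1.1, 29.2% against 19.9%, which is percentile 88.1 and percentile 64.4 of the genes tested.

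TGFB1 had the largest share of its body under mH2A1.1, with 61.9% covered, percentile 84.5 of the genes tested, against a median of 8.29% over all of them and 9.64% over the 9 genes. The annotated gene runs on beyond the MANE Select transcript, into HNRNPUL1, and within that transcript the share was 53.7%. One mH2A1.1 peak (chr19:41343001-41352000) held exons 2 and 3 of TGFB1 and another (chr19:41319001-41334000) held exons 6 and 7, while the nearest mH2A1.1 base was 1922 bp downstream of the TSS. Total mH2A1 covered 17.2% of the annotated gene and none of the MANE Select transcript. In TGFB2 the first mH2A1.1 bin (chr1:218346001-218349000) began 665 bp downstream of the TSS, over part of exon 1 and the start of the antisense gene TGFB2-AS1, and 2 more peaks lay in intron 1. TGFB2 had no total mH2A1 peak in its body, and 15.1% of it was under mH2A1.1.

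TGFBR2 held 1 mH2A1.1 bin in intron 3 and 1 total mH2A1 bin in intron 5, each 3.43% of the gene, and the bins did not overlap. TGFBR1 held no peak of either list. The mH2A1.1 peak nearest to its TSS was 29038 bp upstream, and the nearest total mH2A1 peak was 2038 bp upstream. Past the other end of TGFBR1, at position 99154192, lay an mH2A1.1 peak of 27 kb (chr9:99159001-99186000). Of this peak, 18000 bp were also under total mH2A1. Of the genes tested, 27.7% likewise had no base under mH2A1.1. Set beside the RNA-seq values, the gene without any peak in its body, TGFBR1, had a log2 fold change of -0.65 (-0.19 with the correction). The gene with the most peaks, TGFBR3, had one of 0.32 (0.53 with the correction). The 3 genes with mH2A1.1 at the 5′ end of the gene had values of -0.38 (SMAD2), -0.47 (SMAD4) and 0.28 (SMAD7). With the correction these were -0.14 in SMAD2 and -0.04 in SMAD7, and the fold of SMAD4 was 1.0. By the MANE Select start TGFBR3 and SMAD3 had an mH2A1.1 peak as well. The KD level of SMAD3 was 0.999 times the WT level, and its log2 fold change was -0.25 with the correction. None of these genes was called. With 1 ChIP-seq library for each antibody and 9 genes, no test of this relation was made.

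**Figure D5:**
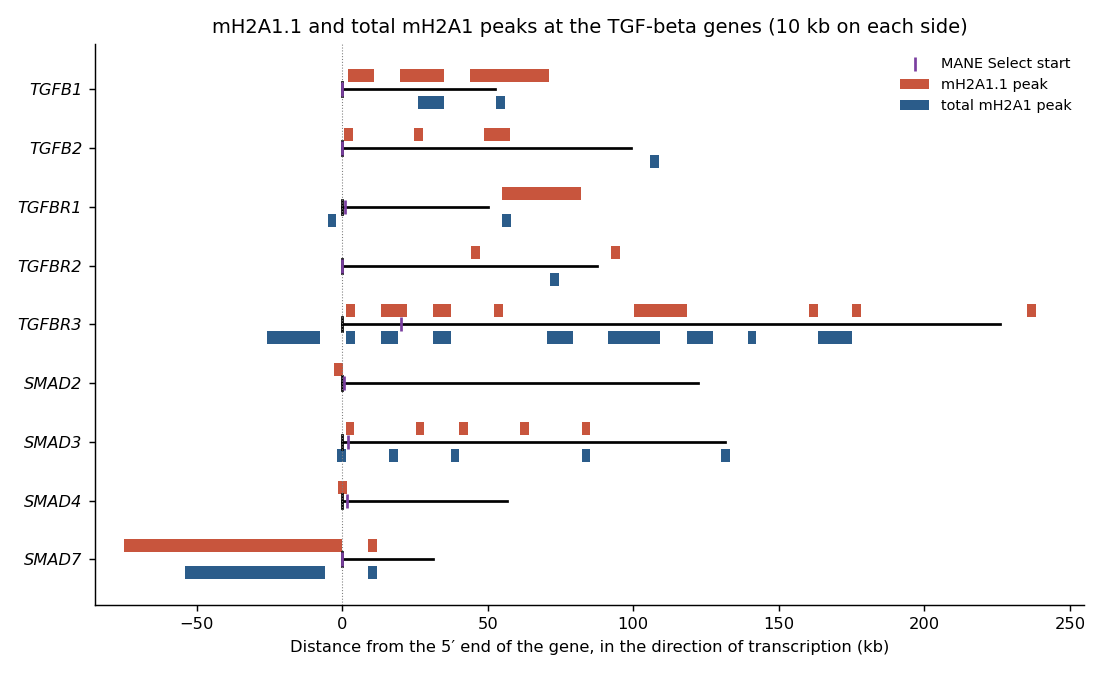
Peaks of mH2A1.1 (red, above) and total mH2A1 (blue, below) within 10 kb of each gene, drawn by distance in kb from the 5′ end of the gene in the direction of transcription, with the gene as a black line and the MANE Select start as a purple tick. The 75 kb domain ends at the start of SMAD7, single bins cover the starts of SMAD2 and SMAD4, and the line of TGFBR1 carries no peak.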

How the data were processed

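Gene counts and peak lists were used as deposited. The authors mapped RNA-seq reads to GRCh38 with STAR 2.5.1, removed low-quality reads and duplicates with SAMtools and counted with htseq-count at default settings. The deposited counts are raw whole numbers per Ensembl gene. The deposited BED files hold mH2A1.1 and total mH2A1 peaks, called by the authors with normR against input on hg38, and their score column is 0 throughout and was not used for ranking. The input and promoter capture Hi-C samples were not analysed here.

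The members and lists were chosen with earlier results of these data known. Of the identifiers, 23061 matched GENCODE release 44 and 106 did not and were left out. edgeR 4.0.16 in R 4.3.3 was used for TMM normalization, filtering by filterByExpr and quasi-likelihood tests of 2 WT against 2 KD libraries over 10943 genes outside chromosomes 21, 22 and X, with Benjamini-Hochberg adjustment. As in the study, a gene was called when it differed by more than 1.5-fold at an adjusted p below 0.1. Nothing states that the replicates were separate cultures, so p-values measure the spread between these libraries. Alternatives were DESeq2 1.42.0, the whole table, RLE factors, no filter beyond 1 count, a lowess correction (span 0.3) for exon GC content and length, each library left out, and the replicate number as a block. The test scripts were checked on simulated counts. From the wider list, genes were named if called by edgeR or DESeq2, up to 6 per direction by unadjusted p, or if at 0 counts. The TSS was the 5′ end of the gene, with the MANE Select start added after seeing the data.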

Additional observations from a re-analysis of the deposited data

How the results depend on the processing

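The number of genes called was the value most open to the processing. It was 0 in edgeR with TMM or RLE factors and on the whole table. Of the genes with an adjusted p, DESeq2 called 945 of 9262 on the whole table and 878 of 7739 without chromosomes 21, 22 and X. Without the filter on low counts edgeR called 2143 of 15019 genes. With the length and GC correction edgeR called 605 of 10943 genes and DESeq2 595 of 7739 (476 higher and 119 lower). Leaving out a library gave between 2 and 4735 genes, the highest without KD replicate 1 (4735) and then without KD replicate 2 (908), where the lone KD library was assumed to vary like the WT pair. For the wider list, the numbers lower and higher were 3 and 1 with DESeq2 on the whole table and 2 and 1 with DESeq2 without those chromosomes. They were 4 and 2 without the filter, 2 and 1 with the correction in edgeR, and 0 and 2 with the correction in DESeq2. Leaving out a library gave 0 to 10 lower and 0 to 11 higher. With the replicate number as a block 2200 of 10943 genes were called, and 4 lower and 3 higher in the list. With the block and the correction 838 of 10943 genes were called, and 2 lower and 1 higher in the list. The labels give the numbers no shared batch, and with 2 pairs the correlation of deviations (0.252) does not establish pairing.

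For the 9 genes and MACROH2A1, 109 values kept direction and side of the threshold, 6 passed it in addition and 15 changed sign. TGFBR1 was called without the filter (-0.67, edgeR adjusted p = 0.0405), beside 2143 of 15019 genes, and with the block (-0.67), beside 2200 of 10943. Without KD replicate 1, where many genes of the table were called too, TGFBR1 (-0.95), TGFB2 (-0.64) and SMAD4 (-0.72) also passed the threshold. The sign changed with the correction in edgeR for TGFB1 (-0.15), TGFBR2 (0.09) and SMAD7 (-0.04), with block and correction for TGFB1 (-0.15), TGFBR2 (0.08), SMAD4 (0.00) and SMAD7 (-0.05), and with the correction in DESeq2 for TGFB1 (-0.03), TGFB2 (0.01), TGFBR2 (0.20), SMAD2 (0.02) and SMAD4 (0.14), where TGFBR3 was called at 0.64. SMAD3 changed sign around 0 with RLE factors (0.00) and without WT replicate 1 (0.02) or KD replicate 1 (0.04). In DESeq2 with the correction the median log2 fold change over all genes was 0.112. The causes were not tested. Ranges over left-out libraries were TGFB1 0.11 to 0.49, TGFB2 -0.64 to -0.16, TGFBR1 -0.95 to -0.42, TGFBR2 -0.09 to -0.04, TGFBR3 0.18 to 0.43, SMAD2 -0.58 to -0.22, SMAD3 -0.05 to 0.04, SMAD4 -0.72 to -0.29, SMAD7 0.11 to 0.49 and MACROH2A1 -0.50 to -0.38.

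An mH2A1.1 peak was at the TSS of 7 genes by any annotated transcript start (57.7% of all genes tested), 5 by the MANE Select start, which was chosen after seeing the data, and 1 with common peaks, also where at least 50% of the peak had to be covered. For total mH2A1 these numbers were 3 by any start (27.1% of all genes) and 0 by the MANE Select start. The median share of the gene bodies under common peaks was 0.0%. The shallowest library gave SMAD7 38 counts, and the 95% interval of its log2 fold change ran from -0.30 to 0.86.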
